A study of Homo sapiens with 12 samples.

Results

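Transcripts of 45 genes that act in mitosis were measured by messenger RNA sequencing in A549 and BEAS-2B cells. The genes were taken by symbol from a list of mitosis and spindle checkpoint genes with no threshold on measured values, although the list was proposed with earlier results of these data known. All 45 were found among the 26485 gene symbols of the count tables, and all 45 were among the 16373 genes that passed the filter on low counts. A549 is a line from a lung adenocarcinoma. BEAS-2B (B2B in the sample names) is a non-cancerous line of bronchial epithelial cells immortalised with SV40 genes. Each line was sampled without treatment (A549_NT and B2B_NT) and after 72 h in 10 µM SR11302 (A549_SR11302 and B2B_SR11302) or 50 µM SP600125 (A549_SP600125 and B2B_SP600125), with 2 libraries in each of the 6 groups. SR11302 is a retinoid-related compound used to block the transcription factor AP-1. SP600125 inhibits the Jun N-terminal kinases, which phosphorylate the AP-1 subunit Jun, and it is also known to inhibit other kinases, among them the checkpoint kinase TTK. The inhibitors were dissolved in DMSO. The labels call the control cells untreated, while a figure legend of the study describes cells treated with DMSO as the comparison for SR11302 in the expression heat maps, so whether the controls received solvent is not settled here. Each line stands for itself alone, since 1 cancer line and 1 immortalised line were used.

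Mitosis begins when cyclin B and the kinase CDK1, activated by CDC25 phosphatases, drive chromosome condensation and spindle assembly. Kinetochores, the protein plates on the centromeres, attach chromosomes to spindle microtubules, and the spindle checkpoint (BUB1, BUB1B, BUB3, MAD2L1 and TTK) blocks anaphase until every kinetochore is attached. The anaphase-promoting complex, a ubiquitin ligase with CDC20 as its activator, then marks securin (PTTG1) and cyclin B for destruction, which frees the protease separase (ESPL1) to cut the cohesin that holds sister chromatids together. The chromosomal passenger complex (AURKB, INCENP, BIRC5 and CDCA8) corrects attachments and later guides cytokinesis. Many of these genes are transcribed late in the cell cycle under the control of the DREAM and MYB-MuvB complexes and the factor FOXM1. In lung epithelium, as in other tissues, their messenger RNA is abundant in dividing cells and scarce in resting ones, and MKI67, which coats mitotic chromosomes, is the common marker of dividing cells.

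Each library had between 13969766 and 24917854 reads assigned to genes. Levels are given in CPM, read counts scaled by library size and TMM factor, as the value in replicate 1 and then in replicate 2. Differences are log2 fold changes ± SE with Benjamini-Hochberg adjusted p from edgeR's quasi-likelihood test over all 16373 genes. The sources do not say whether the libraries of a group came from separate cultures, so the p-values measure the spread between libraries. For each gene that spread was pooled over all 6 groups and is not that of the compared groups alone. Relative to counting noise, the 2 libraries of a group differed most in A549_SR11302 and least in A549_SP600125. The p-values of comparisons that include A549_SR11302 may therefore be too small, which was not tested. A gene was called higher or lower where its adjusted p was under 0.05 and its log2 fold change was 0.5 or more in size, and only called genes are said to have risen or fallen. Where the 2 libraries of a group are said to lie apart from those of another, this describes the named genes. It was not counted over all genes tested and adds no support to a call. Of 6 alveolar markers in A549_NT, SFTPC, SFTPA1, NKX2-1 and SLC34A2 averaged under 0.1 CPM, SFTPB was at 0.445 and 0.743 CPM, and ABCA3 was at 73.8 and 62.3 CPM. The 5 airway basal markers in B2B_NT summed to 0.936 to 1.05 CPM, with KRT5 and TP63 averaging under 0.1 CPM. Summed levels of 5 epithelial markers were 11653 to 13398 CPM in A549_NT and 781 to 870 CPM in B2B_NT. SPARC, a matrix gene of mesenchymal cells, was at 0.333 CPM in A549_NT replicate 1 and at 7.06 CPM in replicate 2, against 2386 and 2447 CPM in B2B_NT. The share of reads in no annotated gene was 23.8 to 25.9% in the 4 untreated libraries and 14.6 to 20.1% in the 8 treated ones, so it moved with every comparison against untreated cells, and its part in the results was not tested. In these bulk samples, fewer cells in mitosis and less RNA per mitotic cell cannot be told apart.

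All 45 genes were expressed in both untreated lines. Per kilobase of exon, the highest levels in A549_NT belonged to TOP2A, the topoisomerase that untangles sister chromatids (138 CPM per kb), cyclin B1 gene CCNB1 (125), CDC25B (121), TPX2, which activates the kinase AURKA on the spindle (104), and UBE2C, the ubiquitin-conjugating enzyme of the anaphase-promoting complex (102). In B2B_NT the highest were CCNB1 (171), TOP2A (145), UBE2C (142), the contractile ring scaffold ANLN (136) and TPX2 (129). The lowest in A549_NT was CDC25C at 5.87 CPM per kb. Over the 6 groups, 24 of the 45 genes had their highest mean level in B2B_SP600125 and 14 in B2B_SR11302, whereas 32 had their lowest in A549_SP600125 and 10 in A549_SR11302. These counts were not made over all genes tested, so they describe the 45 genes without a baseline. The heat map shows these levels in every library.

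**Figure D1:**
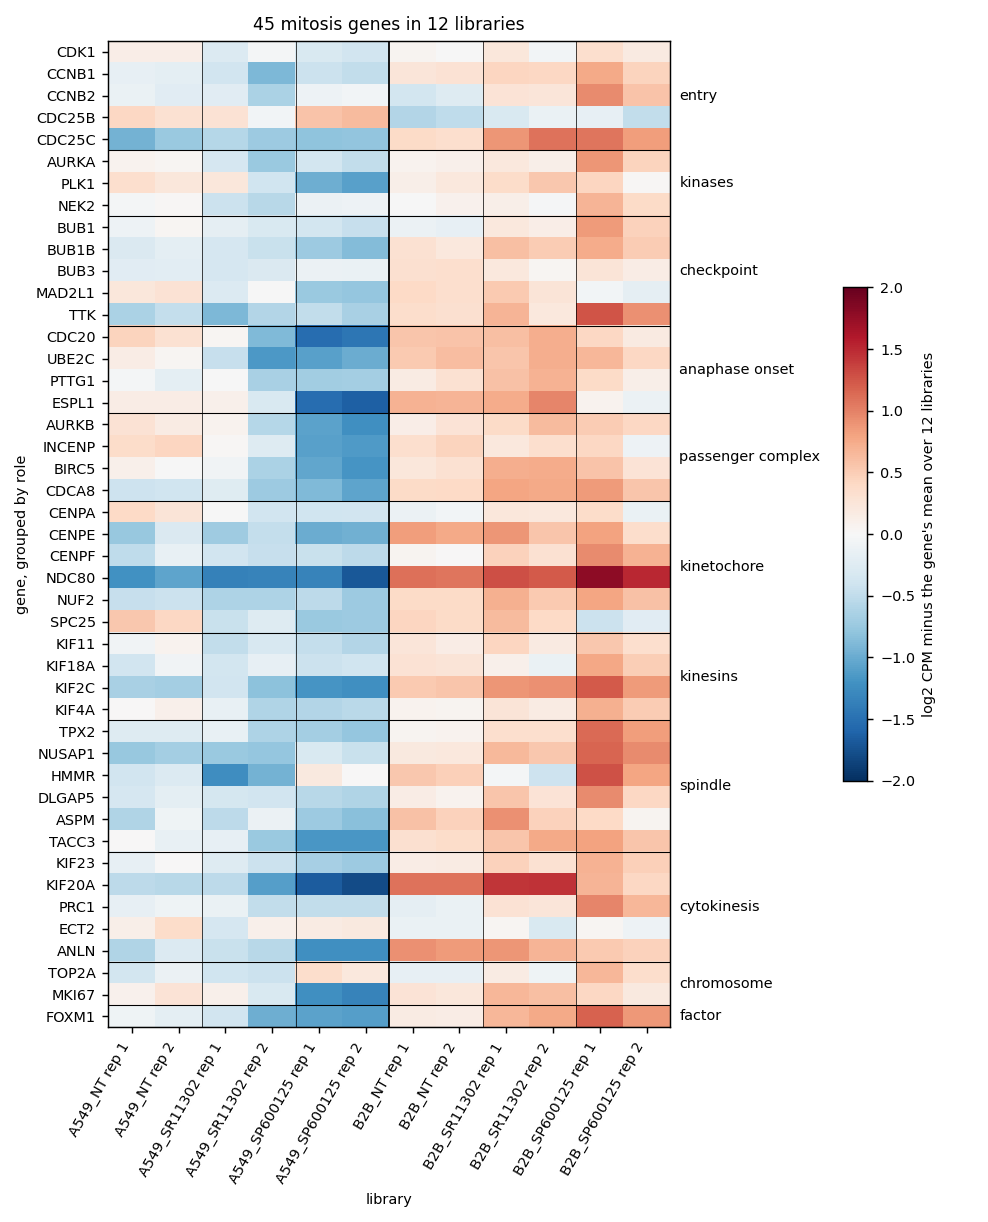
Heat map of the 45 genes (rows, grouped by role) in the 12 libraries (columns). Colour gives log2 CPM minus the gene's mean over the 12 libraries, from blue (lower) to red (higher). The A549_SP600125 columns hold the lowest group mean of 32 genes and the B2B_SP600125 columns the highest of 24, counts that were not made over all genes tested.

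The promoters of these genes share sequence elements. The RefSeq table of promoters (GRCh38.p14, 300 bases each, from 250 before to 50 after the start) held 48 promoters of 38 of the 45 genes. The cell cycle genes homology region (CHR), the site through which DREAM and MYB-MuvB bind, was searched on both strands as TTTGAA or TTCGAA, and the CCAAT box, the site of the factor NF-Y, as CCAAT. A CHR sequence was present in 33 of the 48 promoters (68.8%) against 16.4% of all 35116 promoters in the table, and a CCAAT sequence in 36 (75%) against 34.6%. Both were present in 28 (58.3%) against 6.38% of all. The table had no entry for AURKA, BIRC5, BUB3, FOXM1, TPX2, TTK and UBE2C. Shown are the 250 bases before the start of 3 genes that fell steeply in A549 under SP600125 and of TOP2A, the only member that rose there. INCENP, which fell by more than MKI67, is not shown. CHR and CCAAT sequences (either strand) are in capitals.
CDC20 (chr1:43358731-43358980, plus strand): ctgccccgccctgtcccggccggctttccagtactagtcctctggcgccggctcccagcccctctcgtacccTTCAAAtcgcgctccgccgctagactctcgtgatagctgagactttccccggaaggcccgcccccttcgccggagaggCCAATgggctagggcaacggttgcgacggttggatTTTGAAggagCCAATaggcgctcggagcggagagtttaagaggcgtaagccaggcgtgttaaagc
ESPL1 (chr12:53268049-53268298, plus strand): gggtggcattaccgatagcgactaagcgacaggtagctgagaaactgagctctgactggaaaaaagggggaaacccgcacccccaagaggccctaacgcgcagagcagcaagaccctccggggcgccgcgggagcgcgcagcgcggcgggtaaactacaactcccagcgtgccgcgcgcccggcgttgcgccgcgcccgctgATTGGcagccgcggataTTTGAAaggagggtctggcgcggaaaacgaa
MKI67 (chr10:128126424-128126673, minus strand): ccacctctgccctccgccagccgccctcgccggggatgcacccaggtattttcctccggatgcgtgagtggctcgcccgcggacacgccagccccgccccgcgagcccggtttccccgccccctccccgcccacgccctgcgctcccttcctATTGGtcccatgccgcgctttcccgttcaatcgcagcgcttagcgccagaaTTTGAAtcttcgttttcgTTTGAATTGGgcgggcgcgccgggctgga
TOP2A (chr17:40417897-40418146, minus strand): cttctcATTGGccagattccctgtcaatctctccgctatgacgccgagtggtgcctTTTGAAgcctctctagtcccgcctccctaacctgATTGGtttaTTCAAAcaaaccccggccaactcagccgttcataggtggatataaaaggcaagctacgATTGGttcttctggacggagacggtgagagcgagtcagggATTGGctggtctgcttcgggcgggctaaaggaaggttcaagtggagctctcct
In CDC20, ESPL1 and MKI67 a TTTGAA lay within the last 65 bases before the start, at 60 to 65, 26 to 31 and 24 to 29 bases respectively. CDC20 held a further CHR sequence at 173 to 178 bases. MKI67 held a further TTTGAA at 42 to 47 bases, and its TTTGAA nearest the start shared 1 base with a CCAAT sequence on the opposite strand. In TOP2A the CHR sequences lay farther out, at 146 to 151 and 189 to 194 bases, and 4 CCAAT sequences were spread over the window. These are matches of letters and not measured binding, and the positions of CHR sequences were not compared over the other members. Of the 38 genes with a promoter in the table, 30 held a CHR sequence. Their median log2 fold change under SP600125 in A549 was -0.47, against -0.56 for the 8 without one. In the SP600125 interaction, which is described further on, these medians were -0.90 and -0.64.

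The starting levels of A549_NT were first set against those of B2B_NT. Most differences were towards lower levels in A549, with 14 of the 45 genes called lower (31.1%) and 1 higher (2.22%), at a median log2 fold change of -0.32. Of all genes tested, 26.5% were called lower and 30.4% higher, at a median of 0.05. The share called lower was thus near that of all genes, and the share called higher was far below it. NDC80 (chromosome 18, 2571557 to 2616635), the kinetochore subunit that grips microtubules, stood at 24.0 and 26.5 CPM in A549_NT and 118 and 116 CPM in B2B_NT. All B2B values of NDC80 were thus far above all A549 values, by -2.21 ± 0.13 on the log2 scale as A549 against B2B (adjusted p = 3.16e-09). KIF20A (chromosome 5, 138178719 to 138187723), a kinesin of the cytokinetic midzone, stood at 111 and 108 CPM against 339 and 341 CPM (-1.63 ± 0.15, adjusted p = 4e-07). ANLN (chromosome 7, 36389821 to 36453791) stood at 290.2 and 365 CPM against 837 and 798 CPM (-1.32 ± 0.12, adjusted p = 2.42e-07). CENPE (chromosome 4, 103105349 to 103198445), the kinesin that carries chromosomes to the spindle equator, stood at 80.4 and 111 CPM against 243 and 230.1 CPM (-1.31 ± 0.17, adjusted p = 1.16e-05). None of these 3 overlapped between the lines either. The only gene higher in A549 was CDC25B (chromosome 20, 3786772 to 3806121), a phosphatase that activates CDK1, with 494 and 454 CPM against 247 and 260.0 CPM (0.90 ± 0.13, adjusted p = 3.65e-05). Its relative CDC25C was lower (-1.20 ± 0.13), so that the pair differed between the lines in opposite directions. The microtubule depolymerase KIF2C (-1.19), NUSAP1 (-0.92), TTK (-0.88), ASPM (-0.84), NUF2 (-0.83), the partner of NDC80, HMMR (-0.83), CDCA8 (-0.79), BUB3 (-0.55) and ESPL1 (-0.53) were also lower. By contrast, MKI67 (-0.07 ± 0.13), CDK1 (0.11 ± 0.12), TOP2A (-0.07 ± 0.13) and FOXM1 (-0.30 ± 0.16) were not called. Leaving out each library in turn gave 14 to 17 lower genes, and the 14 named remained called in each of these refits.

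Many mitotic transcripts were lower in A549 under SP600125. Of the 45 genes, 22 fell and 1 rose against A549_NT, at a median log2 fold change of -0.48, whereas of all genes tested 25% were called lower and 23.9% higher, at a median of 0.02. By role, all 4 genes of anaphase onset and all 4 of the passenger complex fell, as did 3 of the 4 spindle kinesins and 3 of the 5 cytokinesis genes. None of the 5 entry genes was called by edgeR's test (1 was lower and none higher at an unadjusted p under 0.05, and DESeq2 also called 0).

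The anaphase group held the steepest fall. CDC20 (chromosome 1, 43358981 to 43363203) went from 197 and 178 CPM in A549_NT to 50.6 and 53.3 CPM in A549_SP600125, a log2 fold change of -1.85 ± 0.21 (adjusted p = 8.62e-06). ESPL1 (chromosome 12, 53268299 to 53293638), which encodes separase, went from 95.9 and 96.1 to 30.0 and 27.9 CPM (-1.73 ± 0.14, adjusted p = 5.25e-07). In both genes the treated pair lay close together and far below the untreated pair. UBE2C (-1.13 ± 0.18) and PTTG1 (-0.57 ± 0.17) fell too. PTTG1 was no longer called without A549_NT replicate 1 or without either A549_SP600125 library.

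In the passenger complex, INCENP (chromosome 11, 62123998 to 62153169), the scaffold that binds and activates AURKB, went from 150.4 and 157 to 54.7 and 53.3 CPM (-1.51 ± 0.15, adjusted p = 2.71e-06). The kinase AURKB itself (chromosome 17, 8204733 to 8210600) went from 88.6 and 81.5 to 34.6 and 30.9 CPM (-1.38 ± 0.17). Survivin, the BIRC5 product that brings the complex to centromeres, fell as well (-1.16 ± 0.16), and CDCA8, or borealin, fell least (-0.57 ± 0.15). Each of the 4 subunits had lower values in both treated libraries than in both untreated ones. The CDCA8 call was lost without A549_SP600125 replicate 2.

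MKI67 (chromosome 10, 128096659 to 128126423) went from 1132 and 1285 CPM to 457 and 422 CPM (-1.46 ± 0.14, adjusted p = 1.58e-06), and its treated pair lay far below its untreated pair. FOXM1 (chromosome 12, 2857680 to 2877174) went from 184 and 171 to 93.1 and 91.1 CPM (-0.95 ± 0.16, adjusted p = 0.000211). CDK1 (chromosome 10, 60778331 to 60794852) went from 195 and 196 to 144 and 136 CPM (-0.48 ± 0.12, adjusted p = 0.00302), which passed the test but not the fold minimum. PLK1, the kinase that drives spindle assembly and mitotic entry, fell (-1.31 ± 0.18), whereas AURKA (-0.48 ± 0.15) and NEK2 (-0.10 ± 0.12), which act at centrosomes, were not called. Of the 5 checkpoint genes, MAD2L1, which with BUB1B forms the inhibitor of CDC20, fell (-1.02 ± 0.12) and BUB1B did so by a smaller amount (-0.55 ± 0.11). BUB1 (-0.39 ± 0.13), TTK (-0.01 ± 0.17) and BUB3 (0.10 ± 0.09) were not called. At the kinetochore the NDC80 complex was split, with SPC25 falling (-1.21 ± 0.14) and its partners NDC80 (-0.38 ± 0.14) and NUF2 (-0.17 ± 0.12) not called. The centromeric histone CENPA fell (-0.71 ± 0.16). KIF20A (-1.18 ± 0.16), the spindle protein TACC3 (-1.09 ± 0.16), ANLN (-0.79 ± 0.12), KIF23 (-0.62 ± 0.11), KIF4A (-0.62 ± 0.13), KIF2C (-0.55 ± 0.14) and KIF11 (-0.53 ± 0.12) complete the 22.

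TOP2A (chromosome 17, 40388525 to 40417896) went the other way, from 805 and 957 CPM to 1326 and 1198 CPM (0.52 ± 0.13, adjusted p = 0.00386). Its rise was no longer called without A549_NT replicate 1 or A549_SP600125 replicate 1. HMMR (0.43 ± 0.16), NUSAP1 (0.35 ± 0.10) and CDC25B (0.24 ± 0.13) also had fold changes above 0 without being called. Over the refits without 1 library, 18 to 25 genes were called lower and 18 of the 22 were called in each, and scaling by library size alone gave 17. The epithelial markers summed to 5075 to 5092 CPM in A549_SP600125, below A549_NT, and KRT8 and KRT18 made up most of that sum. CDH1 of the same list stood higher, at 438 and 380 CPM against 122 and 128 CPM, while EPCAM and the 3 keratin genes stood lower. The 3 endothelial markers summed to 13.9 to 15.0 CPM against 0.222 to 0.265 CPM. The part of these markers in the result was not tested.

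In B2B cells SP600125 went with higher levels. Of the 45 genes, 16 rose and 3 fell against B2B_NT, at a median log2 fold change of 0.33, whereas 21.2% of all genes tested were called higher and 22.6% lower, at a median of 0.01. Cyclin B2 gene CCNB2 (chromosome 15, 59105126 to 59125045) went from 107 and 115 CPM to 263 and 204 CPM (1.08 ± 0.14, adjusted p = 2.68e-05). PRC1 (chromosome 15, 90966040 to 90995629), which bundles the microtubules of the midzone, went from 299 and 307 to 664 and 536 CPM (0.99 ± 0.13, adjusted p = 2.72e-05). TPX2 (chromosome 20, 31739271 to 31801805) went from 466 and 468 to 979 and 797 CPM (0.93 ± 0.14, adjusted p = 9.07e-05). In all 3 genes both treated libraries lay above both untreated ones, and replicate 1 was the higher of the treated pair. FOXM1 went from 219 and 216 to 443 and 356 CPM (0.88 ± 0.16, adjusted p = 0.000387). The spindle group held the most rises, with TPX2, NUSAP1 (0.85 ± 0.10), DLGAP5 (0.59 ± 0.15) and HMMR (0.55 ± 0.16). The checkpoint kinases BUB1 (0.81 ± 0.12) and TTK (0.77 ± 0.16) rose, as did the kinetochore protein CENPF (0.80 ± 0.13), TOP2A (0.68 ± 0.13), CDC25C (0.60 ± 0.12), AURKA (0.59 ± 0.14), NDC80 (0.57 ± 0.12), KIF4A (0.54 ± 0.13) and KIF2C (0.51 ± 0.14).

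MKI67 in B2B stood at 1287 and 1248 CPM without treatment and 1425 and 1225 CPM under SP600125 (0.06 ± 0.13, adjusted p = 0.716), so the marker was not called while TPX2 and CCNB2 were. CDK1 stood at 185 and 178 and 224 and 201 CPM (0.23 ± 0.12, adjusted p = 0.108). The 3 genes that fell were SPC25 (chromosome 2, 168834132 to 168913371), from 34.2 and 33.1 to 18.8 and 21.7 CPM (-0.74 ± 0.13, adjusted p = 0.000346), ESPL1, from 139.6 and 138 to 90.9 and 79.5 CPM (-0.71 ± 0.13, adjusted p = 0.000553), and KIF20A, from 339 and 341 to 256 and 213 CPM (-0.53 ± 0.15, adjusted p = 0.00822). These 3 are also the members called lower in both lines under SP600125. The rises depended on 1 library. The median of the 45 genes was 0.17 without B2B_SP600125 replicate 1 and 0.46 without its replicate 2, against -0.02 and 0 for all genes tested. The number of genes called moved in these refits, among the 45 genes and among all genes tested, and without replicate 1 the excess of rises was not kept. The 8 called higher in every refit were BUB1, CCNB2, CENPF, FOXM1, NUSAP1, PRC1, TPX2 and TTK, while the KIF20A call was lost without B2B_SP600125 replicate 2. In B2B_SP600125 and B2B_NT respectively, 8 mesenchymal markers summed to 2018 to 2308 and 4349 to 4466 CPM, 5 epithelial markers to 400.3 to 436 and 781 to 870 CPM, and 3 endothelial markers, all called higher, to 6.76 to 10.0 and 0.774 to 0.814 CPM. Their part in the result was not tested.

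**Figure D2:**
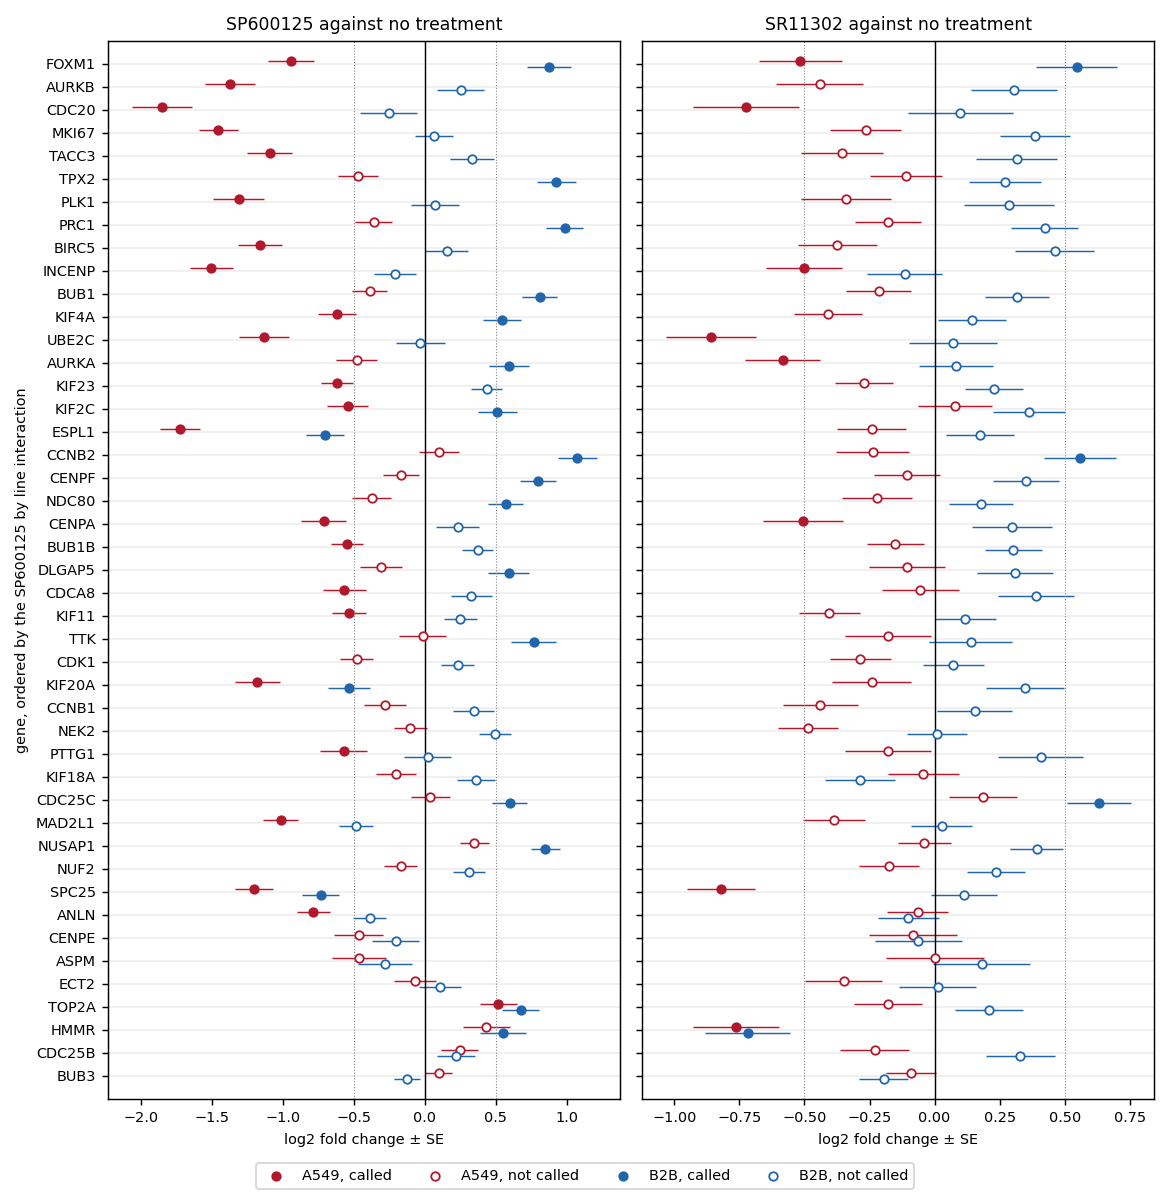
Log2 fold change ± SE of each of the 45 genes under SP600125 (left) and SR11302 (right) against no treatment, in A549 (red) and B2B (blue), ordered by the difference between the lines under SP600125. Filled points were called, and dotted lines mark the fold minimum of 0.5. Under SP600125 28 genes lie left of 0 in A549 and right of 0 in B2B, called or not, a count that was not made over all genes tested.

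The difference between these responses was tested as an interaction, the change in A549 minus the change in B2B. Under SP600125 it was called negative for 33 of the 45 genes and positive for 0, at a median of -0.90. Of all genes tested, 13.1% were called negative and 12.1% positive, at a median of -0.01. By edgeR's test 0 of the 45 genes were positive at an unadjusted p under 0.05 as well, which was not counted over all genes. DESeq2 also called 33 negative and 0 positive, against 12.6% and 12.8% of all genes. FOXM1 had the largest difference (-1.82 ± 0.23, adjusted p = 8.62e-05), having risen in B2B and fallen in A549. FOXM1, KIF4A and KIF2C were called in opposite directions in the lines, and of these FOXM1 alone held both calls in every refit. The B2B rise of KIF4A was lost without B2B_SP600125 replicate 1 and with GC and length offsets, and that of KIF2C without any 1 of 3 libraries, with DESeq2 and with the offsets. AURKB (-1.63 ± 0.24, adjusted p = 0.000329), CDC20 (-1.60 ± 0.29, adjusted p = 0.00151) and MKI67 (-1.52 ± 0.19, adjusted p = 0.000101) followed, each fallen in A549 and not called in B2B. TPX2 (-1.40 ± 0.20) and PRC1 (-1.35 ± 0.18) had differences of like size, called higher in B2B and not called in A549. Their A549 levels also entered the difference. Without treatment and under SP600125, TPX2 stood at 373 and 375 and at 278 and 261 CPM there, and PRC1 at 301 and 318 and at 241 and 241 CPM. All 3 kinases, all 4 passenger genes and all 4 spindle kinesins were among the 33. Those that were not called comprised BUB3 (0.22 ± 0.13), CDC25B (0.02 ± 0.19), HMMR (-0.12 ± 0.23), TOP2A (-0.16 ± 0.18), ECT2 (-0.18 ± 0.21), ASPM (-0.18 ± 0.27), CENPE (-0.26 ± 0.24), ANLN (-0.40 ± 0.17), SPC25 (-0.47 ± 0.19), NUF2 (-0.48 ± 0.16), NUSAP1 (-0.50 ± 0.15) and PTTG1 (-0.59 ± 0.23). The 33 became 26 to 34 when single libraries were left out, and 26 of them were called in all 12 of these refits.

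**Figure D3:**
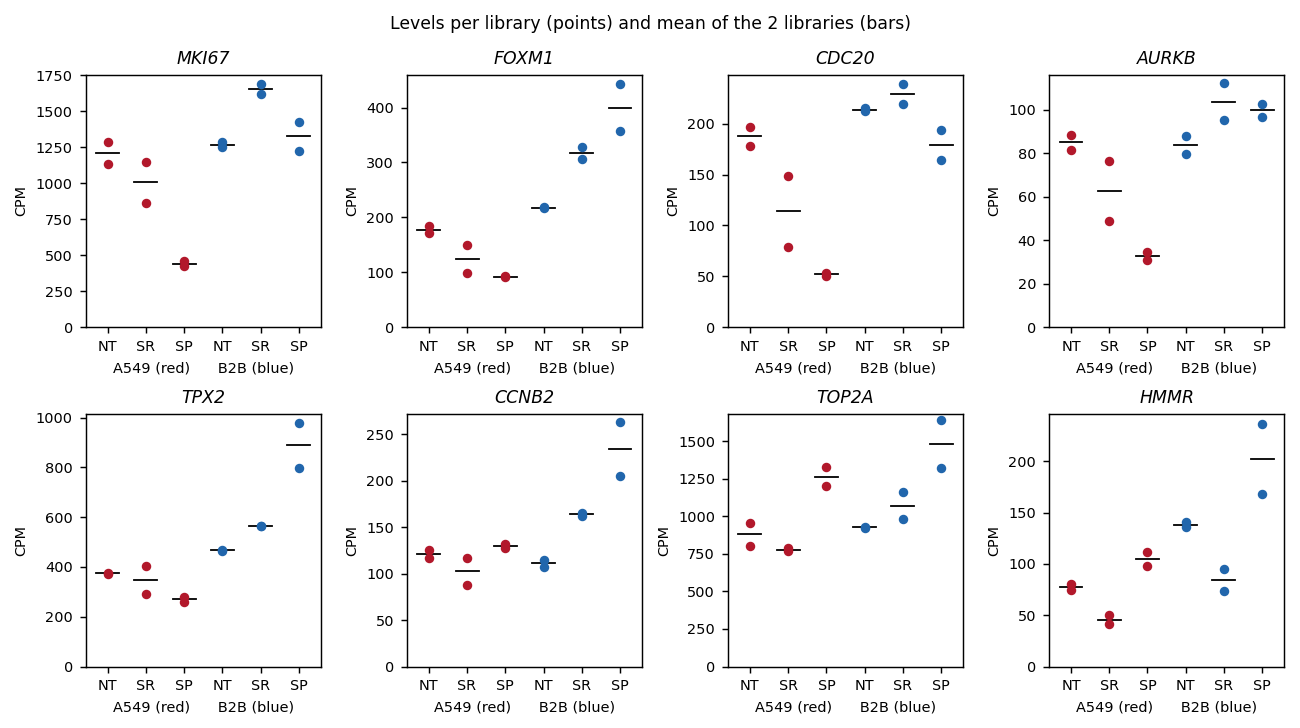
Levels in CPM (linear axes from 0) of 8 genes in each library (points) with the mean of the 2 libraries (bars), for A549 (red) and B2B (blue) without treatment (NT), under SR11302 (SR) and under SP600125 (SP). MKI67, FOXM1, CDC20 and AURKB are lowest in A549 under SP600125, TPX2 and CCNB2 are highest in B2B under SP600125, TOP2A is higher under SP600125 in both lines, and HMMR is lower under SR11302 in both.

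Fewer of these genes were called under SR11302, and in A549 the count varied with the library. Of the 45 genes, 8 fell in A549 and 0 rose, at a median log2 fold change of -0.24, against 13% lower and 14.8% higher among all genes tested, at a median of 0.02. At an unadjusted p under 0.05 in edgeR, 19 were lower and 0 higher, which was not counted over all genes. DESeq2 also called 8 lower and 0 higher, against 11.2% and 13.5% of all genes. UBE2C (chromosome 20, 45812576 to 45816957) stood at 136 and 127 CPM in A549_NT and 89.5 and 55.1 CPM in A549_SR11302 (-0.86 ± 0.17, adjusted p = 0.00186). SPC25 went from 36.6 and 33.9 to 18.7 and 21.2 CPM (-0.82 ± 0.13, adjusted p = 0.000324). HMMR (chromosome 5, 163460203 to 163491941), a microtubule-binding protein of the spindle, went from 74.98 and 80.7 to 41.1 and 50.5 CPM (-0.76 ± 0.17, adjusted p = 0.00307). These 3 were called in every refit without 1 library. CDC20 went from 197 and 178 to 149 and 78.6 CPM (-0.72 ± 0.20, adjusted p = 0.0141), with replicate 2 much the lower of the treated pair. FOXM1 went from 184 and 171 to 149.6 and 98.6 CPM (-0.52 ± 0.16, adjusted p = 0.0212), again with replicate 2 lower, and AURKA (-0.58), CENPA (-0.51) and INCENP (-0.50) were the others that fell. MKI67 stood at 1132 and 1285 CPM without and 1145 and 866 CPM with SR11302 (-0.27 ± 0.13, adjusted p = 0.141), so its pairs overlapped. CDK1 stood at 195 and 196 and 148 and 172 CPM (-0.28 ± 0.12, adjusted p = 0.0699). Without 1 library the median of the 45 genes ran from -0.13 (without A549_SR11302 replicate 2) to -0.36 (without its replicate 1). The number of genes called moved in these refits, among the 45 genes and among all genes tested. With scaling by library size alone, 4 of the 45 genes were called lower, against 9.91% of all genes. The 5 epithelial markers summed to 5379 to 6413 CPM in A549_SR11302, with 4 called lower, and the 8 mesenchymal markers to 1166 to 1302 CPM against 875 to 956 CPM in A549_NT, with 4 called higher, and their part in the result was not tested.

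In B2B, 3 of the 45 genes rose under SR11302 and 1 fell, at a median log2 fold change of 0.23, against 11.4% higher and 11.1% lower among all genes tested, at a median of 0.01. CDC25C (chromosome 5, 138285269 to 138338355) went from 45.6 and 44.3 to 64.7 and 74.6 CPM (0.63 ± 0.12, adjusted p = 0.00203). CCNB2 went from 107 and 115 to 165 and 162 CPM (0.56 ± 0.14, adjusted p = 0.00843), and FOXM1 from 219 and 216 to 307 and 329 CPM (0.55 ± 0.16, adjusted p = 0.0185). In each of these genes the pairs did not overlap. HMMR fell in B2B as in A549, from 141 and 136 to 94.6 and 73.3 CPM (-0.72 ± 0.16, adjusted p = 0.00508), a call lost without B2B_SR11302 replicate 2. MKI67 stood at 1287 and 1248 and 1691 and 1619.8 CPM (0.39 ± 0.13, adjusted p = 0.0452), past the test and under the fold minimum. CDK1 stood at 185 and 178 and 209 and 171 CPM (0.07 ± 0.12, adjusted p = 0.676). Of the 3 rises, CDC25C alone was called in every refit, and 1 gene was called higher without B2B_NT replicate 1.

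The SR11302 by line interaction was called negative for 11 of the 45 genes and positive for 0, at a median of -0.46, against 7.41% negative and 8.34% positive among all genes tested, at a median of 0.0034. At an unadjusted p under 0.05 in edgeR, 31 of the 45 genes were negative and 0 positive, which was not counted over all genes. DESeq2 called 17 negative and 0 positive, against 7.56% and 8.96% of all genes. The largest differences were those of FOXM1 (-1.06 ± 0.22, adjusted p = 0.00555), SPC25 (-0.93 ± 0.18, adjusted p = 0.0033), UBE2C (-0.93 ± 0.24, adjusted p = 0.0186) and BIRC5 (-0.83 ± 0.21, adjusted p = 0.0176). FOXM1 and SPC25 were the 2 called in every refit. Without 1 library the median of the 45 genes ran from -0.36 (without A549_SR11302 replicate 2) to -0.59 (without its replicate 1). The number of genes called moved widely in these refits, among the 45 genes and among all genes tested. MKI67 (-0.65 ± 0.19, adjusted p = 0.033) was called in 3 of the 12 refits. CDK1 was not called (-0.36 ± 0.16).

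The inhibitors were also set against each other within each line, at the same time and at doses that differ. In A549, 13 of the 45 genes were lower under SP600125 than under SR11302 and 2 were higher, at a median log2 fold change of -0.21, against 20.5% and 16.6% of all genes tested, at a median of -0.03. ESPL1 stood at 92.4 and 69.9 CPM under SR11302 and 30.0 and 27.9 CPM under SP600125 (-1.49 ± 0.14, adjusted p = 3.98e-06). MKI67 stood at 1145 and 866 and 457 and 422 CPM (-1.19 ± 0.14, adjusted p = 1.73e-05), CDC20 differed by -1.13 ± 0.21 (adjusted p = 0.00071) and INCENP by -1.01 ± 0.15 (adjusted p = 0.000136). All 4 passenger genes were among the 13. HMMR was higher under SP600125, with 41.1 and 50.5 CPM under SR11302 and 112 and 98.2 CPM under SP600125 (1.20 ± 0.17, adjusted p = 8.04e-05), and so was TOP2A (0.70 ± 0.13, adjusted p = 0.000761). FOXM1 (-0.43 ± 0.16, adjusted p = 0.0407) and CDK1 (-0.19 ± 0.12) were not called. The 2 higher genes were 4 without A549_SR11302 replicate 1.

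In B2B, 7 genes were higher (15.6%) and 4 lower (8.89%) under SP600125 than under SR11302, at a median log2 fold change of 0.07. Of all genes tested, 15.6% were higher and 18.1% lower, at a median of 0. The share called higher was thus that of all genes. HMMR stood at 94.6 and 73.3 CPM under SR11302 and 236 and 168 CPM under SP600125 (1.27 ± 0.16, adjusted p = 4.63e-05). It was thus the gene with the largest rise in both lines, and the 1 member higher in B2B in every refit. TPX2 (0.66 ± 0.14, adjusted p = 0.00182), the kinesin KIF18A (0.65 ± 0.14, adjusted p = 0.00177) and TTK (0.63 ± 0.16, adjusted p = 0.00605) came next. KIF20A stood at 429 and 436 and 256 and 213 CPM (-0.88 ± 0.15, adjusted p = 0.000393), with ESPL1 (-0.88 ± 0.13, adjusted p = 0.000159), SPC25 (-0.85 ± 0.13, adjusted p = 0.00018) and MAD2L1 (-0.51 ± 0.12, adjusted p = 0.00369) the other lower genes. MKI67 (-0.32 ± 0.13), FOXM1 (0.33 ± 0.16) and CDK1 (0.16 ± 0.12) were not called. Without 1 library the median of the 45 genes ran from -0.05 (without B2B_SP600125 replicate 1) to 0.18 (without its replicate 2). The number of genes called moved in these refits, among the 45 genes and among all genes tested. Scaling by library size alone gave 12 higher and 3 lower.

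The members called in none of the 4 comparisons against no treatment were CDK1, CCNB1, CDC25B, NEK2, BUB3, CENPE, NUF2, KIF18A, ASPM and ECT2. How large a share of all genes tested was called in none was not counted. Of these members, CDK1, CCNB1, NEK2, CENPE, NUF2 and KIF18A each passed the test in at least 1 comparison without reaching the fold minimum. BUB3 ranged from 194 CPM in A549_SR11302 replicate 1 to 309.7 CPM in B2B_NT replicate 2, and ECT2, which activates the contractile ring, from 221 to 361 CPM.

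Base composition moved with several of these results. The exons of the 45 genes ranged from 34.8 to 59.4% GC (median 44.5%, against 48.2% over 15774 tested genes). Among the genes that fell in A549 under SP600125 the median was 49.7%, and among the others 40.6%. Over the 45 genes the log2 fold change in A549 under SP600125 had a Spearman correlation of -0.51 with GC content, and over the 15774 genes it was -0.39, each as a description across genes that share libraries. Replicates of 1 group also differed with GC content, with correlations of replicate 2 minus replicate 1 of -0.81 in A549_SR11302, -0.70 in A549_NT, 0.66 in B2B_NT and 0.88 in B2B_SR11302, but of 0.13 in A549_SP600125 and -0.10 in B2B_SP600125. With offsets for GC content and exon length in the fit, 35 of the 45 genes were called lower in A549 under SP600125, at a median of -0.77, against 20.6% of all genes in that fit. The log2 fold changes of CDC20 (-1.39), INCENP (-1.04) and ESPL1 (-1.45) were then smaller, that of MKI67 was -1.52, and CDK1 was called at -0.97. TOP2A, at 38.7% GC, was then at 0.09 in A549 and no longer called, and at 0.59 in B2B, still called. CDC25B, at 59.2% GC, was at 0.75 and called higher. With the offsets 41 genes were called negative in the SP600125 interaction, against 11.3% of all genes, and 26 in the SR11302 interaction, against 7.79%. In B2B under SP600125, 12 were then called higher and 5 lower, against 20.2% and 21.7% of all genes. Between the inhibitors in B2B, 1 was then higher and 6 were lower under SP600125, against 14.6% and 16.2%. The part of GC content in the results was not tested beyond these fits.

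**Figure D4:**
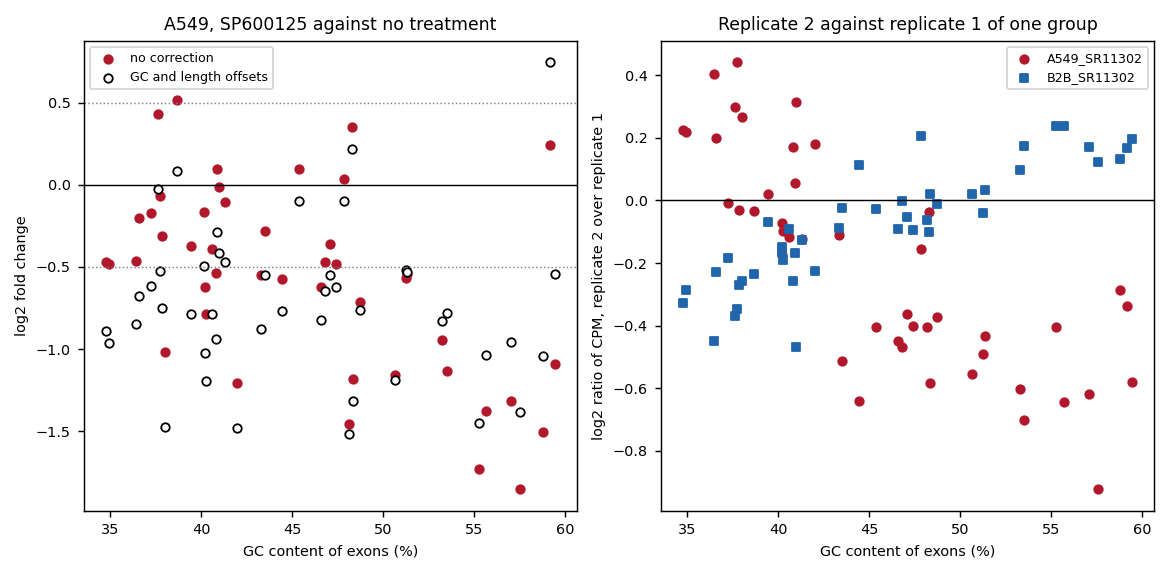
Left, log2 fold change of the 45 genes in A549 under SP600125 against the GC content of their exons (%), without correction (red) and with GC and length offsets (open), dotted lines marking 0.5 and -0.5. Right, log2 ratio of CPM of replicate 2 over replicate 1 in A549_SR11302 (red circles) and B2B_SR11302 (blue squares), where the replicates differ with GC content in opposite directions (Spearman correlations of -0.81 and 0.88).

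Some counts depend on how reads were assigned. In 9 of the 45 genes fewer than 95% of 75-base windows of the exons were unique in the genome at up to 3 mismatches. The lowest shares were those of KIF4A (55.0%), CDC20 (61.7%), NEK2 (71.6%), AURKA (75.2%) and SPC25 (75.8%), while MAD2L1, UBE2C, PTTG1 and NUSAP1 had 87.9 to 93.8%. Reads that align to several places had a separate tally in the count tables and were in no gene's count, so the levels of these genes may be understated and are uncertain. Among the 36 other genes, 16 fell in A549 under SP600125 and 27 were called negative in the interaction. PRC1 shares 1892 exon bases with the antisense gene PRC1-AS1 and FOXM1 782 bases with ITFG2 on the opposite strand, and nothing in the sources used here gives the strand setting of the counting.

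Other genes of the same pathways, from 6 lists with no member in common with the 45, were counted in the same fit. Their counts stand beside all genes tested, of which 25% were lower and 23.9% higher in A549 under SP600125, 22.6% lower and 21.2% higher in B2B, and 13.1% negative and 12.1% positive in the interaction. Of 36 further spindle and cytokinesis genes, 28 fell and 0 rose in A549 under SP600125, and 32 were called negative and 0 positive in the interaction (DESeq2 called 28 lower and 0 higher in A549 and 32 negative and 0 positive in the interaction, and at an unadjusted p under 0.05 edgeR had 1 higher and 0 positive). UBE2S, which extends the ubiquitin chains made by the anaphase-promoting complex, fell in both lines under both inhibitors. It went from 472 and 415 CPM to 23.1 and 29.5 CPM in A549 under SP600125 (-4.07 ± 0.26, adjusted p = 8.66e-08) and from 226 and 267 to 34.6 and 30.9 CPM in B2B (-2.91 ± 0.25), and under SR11302 the differences were -2.06 ± 0.24 and -1.38 ± 0.23. CKS1B, a subunit that binds CDK1, also fell in all 4 comparisons, with -1.93 ± 0.14 in A549 and -1.62 ± 0.14 in B2B under SR11302. Of 37 further kinetochore genes, 18 fell (48.6%) and 1 rose (2.7%) in A549 under SP600125. In B2B 7 rose and 7 fell (18.9% each), close to the shares of all genes. SPC24, the partner of SPC25 in the NDC80 complex, fell in both lines, from 24.5 and 22.3 to 4.62 and 3.52 CPM in A549 (-2.53 ± 0.21, adjusted p = 6.89e-07) and from 34.2 and 39.3 to 15.0 and 14.5 CPM in B2B (-1.32 ± 0.18). Both members of the SPC24 and SPC25 pair thus fell in both lines. Of 19 condensin and cohesin genes, 9 fell (47.4%) and 2 rose (10.5%) in A549. In B2B 5 rose (26.3%), near the share of all genes, and 1 fell (5.26%), with the condensin subunit NCAPH at -1.51 ± 0.17 in the interaction (adjusted p = 4.27e-05). Subunits and inhibitors of the anaphase-promoting complex moved in both directions, with 7 lower (43.8%) and 4 higher (25%) of 16 in A549, and 2 negative (12.5%) and 1 positive (6.25%) in the interaction. The largest negative difference there was that of FBXO5, or EMI1, an inhibitor of the complex (-1.25 ± 0.16, adjusted p = 0.000101).

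Among 21 regulators of the G2 to M transition, 8 fell (38.1%) and 5 rose (23.8%) in A549 under SP600125, the latter at the share of all genes (23.9%). In B2B 7 rose (33.3%) and 3 fell (14.3%), against 21.2% and 22.6% of all genes. PKMYT1, a kinase that holds CDK1 inactive, went from 70.4 and 63.8 to 4.84 and 5.17 CPM in A549 (-3.74 ± 0.26, adjusted p = 1.37e-07) and from 64.0 and 68.4 to 21.9 and 20.3 CPM in B2B (-1.65 ± 0.22). CDKN1A, the p53-induced inhibitor of cyclin-dependent kinases, went from 117 and 109.6 CPM in A549_NT to 369.7 and 319 CPM under SR11302 (1.60 ± 0.11) and 277 and 291 CPM under SP600125 (1.33 ± 0.11). In B2B it stood at 90.8 and 101 CPM without treatment, 75.4 and 76.6 CPM under SR11302 (-0.34 ± 0.10, not called) and 292 and 283 CPM under SP600125 (1.58 ± 0.11). CDKN1A thus rose in both lines under SP600125, and its relation to the levels of the 45 genes was not tested. Of 20 genes of S phase, 16 fell and 0 rose in A549 under SP600125, and all 20 were called negative in the interaction with 0 positive (DESeq2 called 16 lower and 0 higher in A549 and 20 negative and 0 positive in the interaction, and at an unadjusted p under 0.05 edgeR had 1 higher and 0 positive). RRM2, which makes deoxynucleotides, went from 606 and 634 to 100.3 and 90.6 CPM in A549 (-2.70 ± 0.15, adjusted p = 3.15e-08), with an interaction of -2.18 ± 0.20. PCNA, the sliding clamp of replication, rose in B2B from 201 and 199.5 to 426 and 492 CPM (1.19 ± 0.11, adjusted p = 1.39e-06).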

How the data were processed

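Poly(A) RNA libraries of A549 and B2B cells were sequenced, and the authors aligned the reads to hg38 with STAR 2.7.10a and counted them per gene symbol with HTSeq 1.99.2. For the annotation version, read length and strand setting, nothing is given in the sources used here. The deposited values are raw counts, with no normalization. Rows that name no gene were left out, among them reads in no feature (14.6 to 25.9% per library).

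Counts of all 12 libraries were fitted together in edgeR 4.0.16 (R 4.3.3, limma 3.58.1) with TMM scaling, its filter on low counts by group and the quasi-likelihood F test, leaving 6 residual degrees of freedom. SE was the absolute log2 fold change over the square root of F. P-values were adjusted over all 16373 genes. The fit was tested on simulated data. The authors' replicate numbers were not used to pair libraries. Alternatives were DESeq2 1.42.0 as a test and for size factors, scaling by library size, no filter, a replicate block, offsets for GC content and exon length, no fold minimum, leaving out each library, and genes with unique windows (75 bases, minimap2 2.31, at most 3 mismatches).

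All 45 genes were described by counts and medians. In full were named the 4 called genes with the largest change in each direction and comparison, and MKI67, FOXM1 and CDK1, and of other lists up to 3 called genes per comparison. Genes near a threshold and those filling a role were given by value. The members and lists were chosen with earlier results of these data known. Gene positions, GC content and lengths came from GENCODE v44 on GRCh38 (24508 of 26485 symbols matched, 1347 through an older symbol), and promoters from RefSeq (GRCh38.p14). Depth was 13969766 to 24917854 reads in genes per library.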

Additional observations from a re-analysis of the deposited data

Results flagged for a closer look

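Each result below was listed because the response to an inhibitor differed between the lines in the interaction test, and is given as the log2 fold change in A549 minus that in B2B. The lines were each measured in 1 control pair, which both inhibitors share, so the 2 sets of differences are not independent of each other.

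Under SP600125 the differences among genes of mitotic entry and the mitotic kinases were those of CCNB2 (-0.98), CDK1 (-0.71), CCNB1 (-0.62), CDC25C (-0.56), PLK1 (-1.39), AURKA (-1.07) and NEK2 (-0.60). Among checkpoint and anaphase genes they were BUB1 (-1.20), BUB1B (-0.92), TTK (-0.78), MAD2L1 (-0.53), CDC20 (-1.60), UBE2C (-1.10) and ESPL1 (-1.02). The passenger complex showed AURKB (-1.63), BIRC5 (-1.31), INCENP (-1.30) and CDCA8 (-0.89), and the kinetochore CENPF (-0.96), NDC80 (-0.95) and CENPA (-0.94). Kinesins and spindle proteins gave KIF4A (-1.17), KIF2C (-1.06), KIF11 (-0.78), KIF18A (-0.56), TACC3 (-1.43), TPX2 (-1.40) and DLGAP5 (-0.90). The cytokinesis genes were PRC1 (-1.35), KIF23 (-1.06) and KIF20A (-0.65). MKI67 was at -1.52 and FOXM1 at -1.82. Of these, CCNB1, CDC25C, KIF18A, KIF20A, MAD2L1, NEK2 and TTK were not called when certain single libraries were left out.

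Under SR11302 the differences were those of FOXM1 (-1.06), SPC25 (-0.93), UBE2C (-0.93), BIRC5 (-0.83), CENPA (-0.81), CCNB2 (-0.80), AURKB (-0.75), AURKA (-0.67), MKI67 (-0.65), PRC1 (-0.60) and KIF11 (-0.52). FOXM1 and SPC25 were called in every refit without 1 library. The replicates of A549_SR11302 differed from each other with GC content (Spearman correlation of -0.81 over the 45 genes), and so did those of B2B_SR11302 in the opposite direction (0.88), and the part of this in the SR11302 differences was not tested.

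No group held 4 or more libraries, so single libraries were not tested as outliers.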

How the results depend on the processing

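None of the 45 genes changed direction under any alternative run in a comparison where it was called. Without single libraries, counts of the 45 genes called higher and lower ranged from 1 to 1 and 14 to 17 between the untreated lines, 0 to 0 and 5 to 17 for SR11302 in A549, 1 to 3 and 0 to 1 for SR11302 in B2B, 0 to 1 and 18 to 25 for SP600125 in A549, 8 to 19 and 2 to 5 for SP600125 in B2B, 0 to 0 and 2 to 28 for the SR11302 interaction, 0 to 0 and 26 to 34 for the SP600125 interaction, 2 to 4 and 10 to 17 for SP600125 against SR11302 in A549, and 1 to 15 and 3 to 5 in B2B. Where this left 1 library in a group, it was assumed to vary like the others. The number of all genes called moved in these refits too, so the ranges do not describe the 45 genes alone. With GC and length offsets, 2 genes were higher between untreated lines, 35 lower for SP600125 in A549, 5 lower for SP600125 in B2B, 26 lower in the SR11302 interaction, 21 lower for SP600125 against SR11302 in A549, and 1 higher in B2B. Scaling by library size alone gave 4 lower for SR11302 in A549, 5 higher for SR11302 in B2B, 2 higher for SP600125 in A549 and 12 higher for SP600125 against SR11302 in B2B. It moved the median log2 fold change of all genes by -0.12 between the untreated lines, 0.12 for SR11302 in A549 and 0.14 for SP600125 in B2B, and by less than 0.1 in the other comparisons. For the SR11302 interaction, 20 were lower with no filter on low counts and 17 with DESeq2. With no fold minimum, 3 were higher between untreated lines, 13 lower for SR11302 in A549, 9 higher for SR11302 in B2B, 3 higher for SP600125 in A549, 5 lower for SP600125 in B2B, and 5 higher in A549 and 14 higher in B2B for SP600125 against SR11302. Among the 36 genes with at least 95% unique windows, 4 were lower for SR11302 in A549 and 2 lower for SP600125 against SR11302 in B2B. The cause of these changes was not tested, apart from the smaller number of genes in the last. Same-numbered replicates did not deviate together across the groups as a whole (correlations of -0.26 to 0.24 over 15 pairs of groups). The correlation was 0.24 between A549_NT and A549_SR11302, the groups of 1 comparison, and -0.26 between A549_SR11302 and B2B_SR11302. A fit with the replicate block gave 9 lower in the SR11302 interaction and 30 in the SP600125 interaction, with the other counts as in the fit without it. Depth was 13969766 to 24917854 reads in genes per library.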

Other observations

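Regulators outside the 45 genes also differed between the lines. GADD45A, a p53 target that slows entry into mitosis, rose in A549 under SR11302 from 25.1 and 21.3 to 59.3 and 50.9 CPM (1.25 ± 0.18, adjusted p = 0.000144), and its SP600125 interaction was 1.66 ± 0.25. SFN, the 14-3-3 sigma protein that holds cyclin B in the cytoplasm, fell in A549 under SP600125 from 325 and 285 to 71.2 and 77.3 CPM (-2.04 ± 0.18, adjusted p = 7.75e-07). Under SR11302 it fell in A549 (-0.99 ± 0.17) and rose in B2B (0.64 ± 0.17). CDC25A, a phosphatase that activates CDK1 and CDK2, fell in A549 under SP600125 (-1.83 ± 0.19), and CCNE1, a cyclin of S phase entry, rose in B2B from 8.62 and 7.78 to 20.4 and 20.8 CPM (1.33 ± 0.14, adjusted p = 4.07e-06). CDT1, which licenses replication origins, fell under SP600125 in both lines (-2.23 ± 0.18 in A549 and -0.88 ± 0.16 in B2B).

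No explanation was tested for these values, which come from edgeR's quasi-likelihood test over all 16373 genes.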
